A study of Mus musculus with 9 samples.

Results

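The genes described here are 3 FOXO transcription factors (Foxo1, Foxo3 and Foxo4) and 5 genes of the mTOR pathway and its neighbourhood (Mtor, Rptor, Rheb, Rps6kb1 and Gsk3b). They were taken from the deposited expression table by gene symbol, and all 8 were among its 10716 genes, so none was lost to the low-value filter behind that table. The cells were C2C12 myotubes, multinucleated muscle cells formed by fusion of a mouse myoblast line. All 9 libraries came from such cultures at 24 h. Of these, 3 received vehicle, 3 received the synthetic glucocorticoid dexamethasone (50 µM), and 3 received the same dose of dexamethasone plus THSG (10 µM). No group received THSG alone, so an effect of THSG can be read only on top of dexamethasone. The study's title places this as a model of muscle atrophy, and the questions put to these genes are whether dexamethasone changes their transcripts and whether THSG added to it does.

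FOXO factors are forkhead transcription factors that the kinase AKT phosphorylates and thereby keeps out of the nucleus. In skeletal muscle, active FOXO proteins switch on genes of protein breakdown and autophagy, among them the muscle ubiquitin ligases Fbxo32 and Trim63. mTOR is a kinase that works in a pair of complexes. Complex 1, built around raptor (Rptor), is switched on by the small GTPase Rheb and drives translation through S6 kinase 1 (Rps6kb1), while complex 2, built around rictor, phosphorylates AKT and SGK. Gsk3b encodes a kinase that AKT inhibits and that restrains glycogen synthesis and beta-catenin. Much of this control acts on proteins and their phosphorylation, which RNA levels do not show.

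Each value is an FPKM, a fragment count scaled to transcript length and library size, a unit inferred from the values and not stated by the submitters. Fold changes are differences of log2(FPKM + 0.1) with their standard error (SE), tested with limma in 1 fit over all genes, and a gene was called at a Benjamini-Hochberg adjusted p under 0.05. The labels do not say that libraries came from separate cultures, so p-values measure only the spread between these libraries, which may be technical. In bulk RNA, fewer cells of a type and less RNA per cell cannot be told apart. All 10 myotube markers looked for were in the table, with summed levels of 6485 to 7025 FPKM in vehicle, 6777 to 7272 with dexamethasone and 7270 to 7428 with dexamethasone plus THSG. That sum is mostly Acta1 and other abundant genes. Singly, 5 of the 10 rose and 1 fell with dexamethasone by the limma test, among them Myh8 (21.6 to 45.4 FPKM) and Ckm (54.1 to 90.6) higher and Des (874.9 to 780.7) lower. Of 8 markers of undifferentiated cells, 7 were listed, summing to 83.5 to 92.5, 75.2 to 88.1 and 85.8 to 90.9 FPKM in the same order, but their members moved in opposite directions. With dexamethasone 4 of the 7 fell and 2 rose by the limma test, with a median change of -0.64 on the log2 scale. The cell division genes Top2a and Ccnb1 fell from means of 9.30 to 2.47 and 6.25 to 1.498 FPKM, and the progenitor markers Cd34 and Pax7 from 25.8 to 11.4 and 6.17 to 3.94, whereas Myf5 rose from 7.74 to 16.2 and Id3 from 14.6 to 25.8. The 4 listed fibroblast markers (of 6) summed to 408 to 427 FPKM in vehicle, 202 to 206 with dexamethasone and 205 to 215 with both agents, of which the matrix genes Col1a1, Col1a2 and Dcn fell and Pdgfra rose by the limma test. Of 5 macrophage markers, Cd14 alone was listed, at 1.45 to 4.05 FPKM in all libraries, and no adipocyte or endothelial marker was listed. The part of any shift in cell makeup in the results below was not tested. The third dexamethasone library stood apart from the other 2 of its group on the second principal component, and mitochondrial transcripts took 14.0% of its summed FPKM against 10.5% to 11.95% elsewhere.

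The promoters of the 3 genes on which the results turn are shown first, because Foxo3 and Rptor were the members called after dexamethasone and Foxo1 is the close relative of Foxo3 whose treated libraries lay below vehicle. RefSeq's promoter table (build GRCm38.p6, whereas the submitters' notes name GRCm39) held entries for 7 of the 8 genes, and Foxo4 had no entry. Each run covers 250 bases before to 50 bases after the gene's start and is printed 5′ to 3′ on the gene's own strand, at chr10:42276646-42276945 (minus strand), chr3:52268087-52268386 (plus strand) and chr11:119602655-119602954 (plus strand). Capitals mark every match, on either strand, to the GC box GGGCGG, the letters bound by SP-family factors. Both strands were also searched for AGAACA, a single arm of the glucocorticoid response element, the forkhead element GTAAACA and the E-box CACGTG, and none of these occurs in the 3 runs.
Foxo3 promoter: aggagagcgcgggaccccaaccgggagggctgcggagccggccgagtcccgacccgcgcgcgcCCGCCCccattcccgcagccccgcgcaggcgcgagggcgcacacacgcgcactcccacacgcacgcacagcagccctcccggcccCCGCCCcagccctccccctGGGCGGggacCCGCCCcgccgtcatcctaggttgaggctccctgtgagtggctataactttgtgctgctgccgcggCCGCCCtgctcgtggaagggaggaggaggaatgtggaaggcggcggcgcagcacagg
Foxo1 promoter: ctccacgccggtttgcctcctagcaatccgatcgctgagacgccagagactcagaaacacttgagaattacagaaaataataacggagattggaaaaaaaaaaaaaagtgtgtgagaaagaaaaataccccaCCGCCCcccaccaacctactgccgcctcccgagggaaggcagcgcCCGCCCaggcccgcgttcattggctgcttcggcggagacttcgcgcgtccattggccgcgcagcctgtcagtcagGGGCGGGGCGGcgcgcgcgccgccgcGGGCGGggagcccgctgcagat
Rptor promoter: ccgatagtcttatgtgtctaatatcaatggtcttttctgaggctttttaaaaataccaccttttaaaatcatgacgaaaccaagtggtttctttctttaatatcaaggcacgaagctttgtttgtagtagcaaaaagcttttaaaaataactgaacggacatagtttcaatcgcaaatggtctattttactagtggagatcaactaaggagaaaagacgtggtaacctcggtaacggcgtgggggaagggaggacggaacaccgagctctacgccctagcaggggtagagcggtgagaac
Foxo3 and Foxo1 each held 5 GC boxes, some side by side, and Rptor held none. Among all 32851 promoters of the same length in the table, 35.7% held at least 1 GC box, 19% held the glucocorticoid arm, 3.65% the forkhead element and 7.15% the E-box. The Foxo3 run was 75% G and C with 35 CpG dinucleotides, the Foxo1 run 61.3% with 31, and the Rptor run 41.7% with 13, against medians of 52.7% and 7 over all promoters. Among the other 4 genes, Mtor held 2 GC boxes, Rheb held 1 GC box and 1 E-box, Rps6kb1 held 1 glucocorticoid arm 105 bases before its start, and Gsk3b held no match. These are matches of letters in a short window and say nothing about binding.

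Foxo3 (ENSMUSG00000048756), whose product is a FOXO factor known for driving muscle wasting, rose with dexamethasone. It measured 12.9, 12.4 and 13.2 FPKM in the vehicle libraries, 21.96, 21.7 and 21.0 with dexamethasone, and 21.1, 21.7 and 23.2 with dexamethasone plus THSG. Every library that received dexamethasone lay above every vehicle library, and the ranges of the 2 treated groups overlapped, with the third library of the combined group the highest. The means were 12.8 ± 0.413, 21.5 ± 0.488 and 22.003 ± 1.10 FPKM (SD, n = 3 each). The change with dexamethasone was 0.74 on the log2 scale (SE 0.06, 95% interval 0.62 to 0.87), a 1.67-fold rise (limma adjusted p = 1.39e-06), and all 20 alternative analyses called it, with values from 0.71 to 0.79.

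Foxo1 (ENSMUSG00000044167), the paralogue that also serves insulin-dependent metabolism, measured 5.16, 5.23 and 5.68 FPKM in vehicle, 4.55, 4.50 and 4.91 with dexamethasone and 4.94, 4.68 and 4.59 with both agents. The 6 libraries given dexamethasone lay below the 3 vehicle libraries without overlap, although the gap was small. Its mean went from 5.36 ± 0.284 to 4.66 ± 0.226 FPKM (SD, n = 3 each). The difference was -0.20 on the log2 scale (SE 0.09, 95% interval -0.39 to -0.00) and missed the threshold (limma adjusted p = 0.108). Of the 19 alternatives that kept Foxo1, 1 called it, the fit without an intensity trend (limma adjusted p = 0.0388), and the adjusted p ranged from 0.0388 to 0.353. Foxo1 was thus the lowest of the FOXO genes in all 3 groups, and its data do not show a rise beside that of Foxo3.

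Foxo4 (ENSMUSG00000042903) measured 15.8, 13.3 and 15.7 FPKM in vehicle, 17.7, 16.8 and 17.1 with dexamethasone and 15.8, 16.9 and 15.03 with both agents. The dexamethasone libraries were above all vehicle libraries. Of those given THSG as well, the first and the third lay within the vehicle range and the second within the dexamethasone range. The means were 14.9 ± 1.42, 17.2 ± 0.472 and 15.9 ± 0.955 FPKM (SD, n = 3 each). The difference of 0.21 (log2, SE 0.08, 95% interval 0.04 to 0.38) just missed the threshold with limma (adjusted p = 0.0559). It passed after median-ratio scaling (0.26, limma adjusted p = 0.0244) or quantile normalization (0.25, limma adjusted p = 0.0249), after a correction for GC content and length (0.31, limma adjusted p = 0.00397) and without the first vehicle library (0.25, limma adjusted p = 0.0479).

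The remaining family member Foxo6 (ENSMUSG00000052135) was not among the 8 genes but completes the family. It measured 13.0, 11.3 and 11.99 FPKM in vehicle, 10.3, 10.7 and 8.88 with dexamethasone, and 10.7, 12.7 and 9.46 with both agents. The dexamethasone libraries lay below those of vehicle, and the group given both agents overlapped both. The difference with dexamethasone was -0.28 (log2, SE 0.11, limma adjusted p = 0.0729), and the GC and length correction turned it to 0.06. Without the second or the third library of the combined group, which enter this comparison through the shared spread, the adjusted p of limma was 0.0435 and 0.0491, and with only vehicle and dexamethasone in the fit it was 0.0447.

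Summed over the 4 genes, FOXO transcript levels were 45.2 ± 2.62 FPKM in vehicle, 53.4 ± 1.33 with dexamethasone and 53.6 ± 2.06 with both agents (SD, n = 3 each). Foxo3 made up 28.4% ± 0.956 of this sum in vehicle, 40.4% ± 0.0936 with dexamethasone and 41.1% ± 2.95 with both agents. The ratio of Foxo3 to Foxo1 was 2.33 to 2.497 in vehicle, 4.27 to 4.82 with dexamethasone and 4.27 to 5.06 with both, so that no vehicle library reached the other groups. In vehicle, Foxo4 held the largest share (33.0% ± 1.28), and under dexamethasone Foxo3 did. These shares restate the gene levels above, rest on the inferred unit and carry no test of their own.

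**Figure D1:**
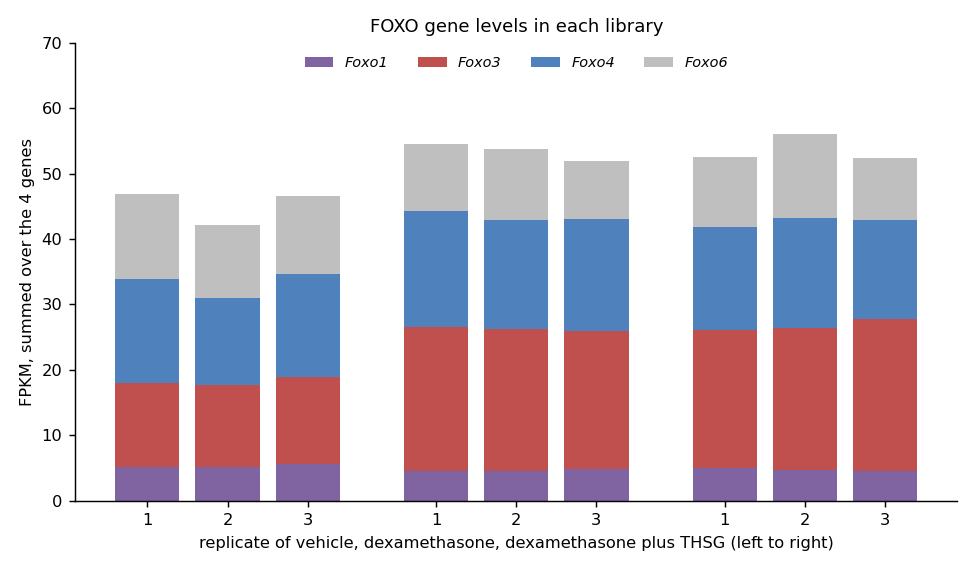
Stacked bars give the FPKM of Foxo1, Foxo3, Foxo4 and Foxo6 in each of the 9 libraries, with replicates 1 to 3 of vehicle, dexamethasone and dexamethasone plus THSG from left to right. The Foxo3 segment widens from 12.4 to 13.2 FPKM in vehicle to 21.0 to 23.2 FPKM in the 6 other libraries, while the Foxo1 segment stays the thinnest.

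Rptor (ENSMUSG00000025583), the scaffold that brings substrates to mTOR complex 1, measured 28.2, 25.2 and 27.9 FPKM in vehicle, 30.1, 31.4 and 30.0 with dexamethasone and 30.9, 30.0 and 30.8 with both agents. All 6 libraries given dexamethasone lay above all 3 of vehicle, whose second library was the lowest. The means were 27.1 ± 1.63, 30.5 ± 0.761 and 30.6 ± 0.480 FPKM (SD, n = 3 each). The rise with dexamethasone was 0.17 (log2, SE 0.05, 95% interval 0.05 to 0.29), or 1.13-fold (limma adjusted p = 0.0289). This call was lost without the second vehicle library (0.12, limma adjusted p = 0.109), without the first dexamethasone library (0.18, adjusted p = 0.0531) and without the second (0.15, adjusted p = 0.0946), and it was made in 15 of 20 alternatives.

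Mtor (ENSMUSG00000028991), the kinase itself, measured 16.0, 15.2 and 16.2 FPKM in vehicle, 17.5, 17.6 and 15.7 with dexamethasone and 16.1, 17.0 and 15.4 with both agents. The third dexamethasone library fell inside the vehicle range and the other 2 lay above it. The difference was 0.10 (log2, 95% interval -0.05 to 0.24, limma adjusted p = 0.293), so a rise of about the size seen for Rptor lies within its interval.

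Rheb (ENSMUSG00000028945), the GTPase that activates mTOR complex 1, measured 28.6, 31.5 and 28.4 FPKM in vehicle, 30.1, 31.3 and 31.8 with dexamethasone and 30.5, 25.9 and 32.1 with both agents. The groups overlapped, and the group given both agents held both the lowest and the highest library of all 9. The difference with dexamethasone was 0.08 (log2, 95% interval -0.09 to 0.24, limma adjusted p = 0.480).

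Rps6kb1 (ENSMUSG00000020516), the S6 kinase that mTOR complex 1 phosphorylates, measured 13.5, 14.0 and 12.9 FPKM in vehicle, 13.9, 13.7 and 14.3 with dexamethasone and 14.3, 13.3 and 14.2 with both agents. These ranges overlap throughout. The difference with dexamethasone was 0.06 (log2, 95% interval -0.08 to 0.19, limma adjusted p = 0.521) and turned to -0.00 under the GC and length correction.

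Gsk3b (ENSMUSG00000022812) measured 25.8, 26.3 and 25.5 FPKM in vehicle, 25.6, 26.4 and 29.1 with dexamethasone and 26.5, 26.0 and 27.6 with both agents. The vehicle libraries lay within 1 FPKM of each other, and the highest value came from the third dexamethasone library, the one that stood apart. The difference with dexamethasone was 0.06 (log2, 95% interval -0.06 to 0.19, limma adjusted p = 0.431), and 0.01 without that library.

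**Figure D2:**
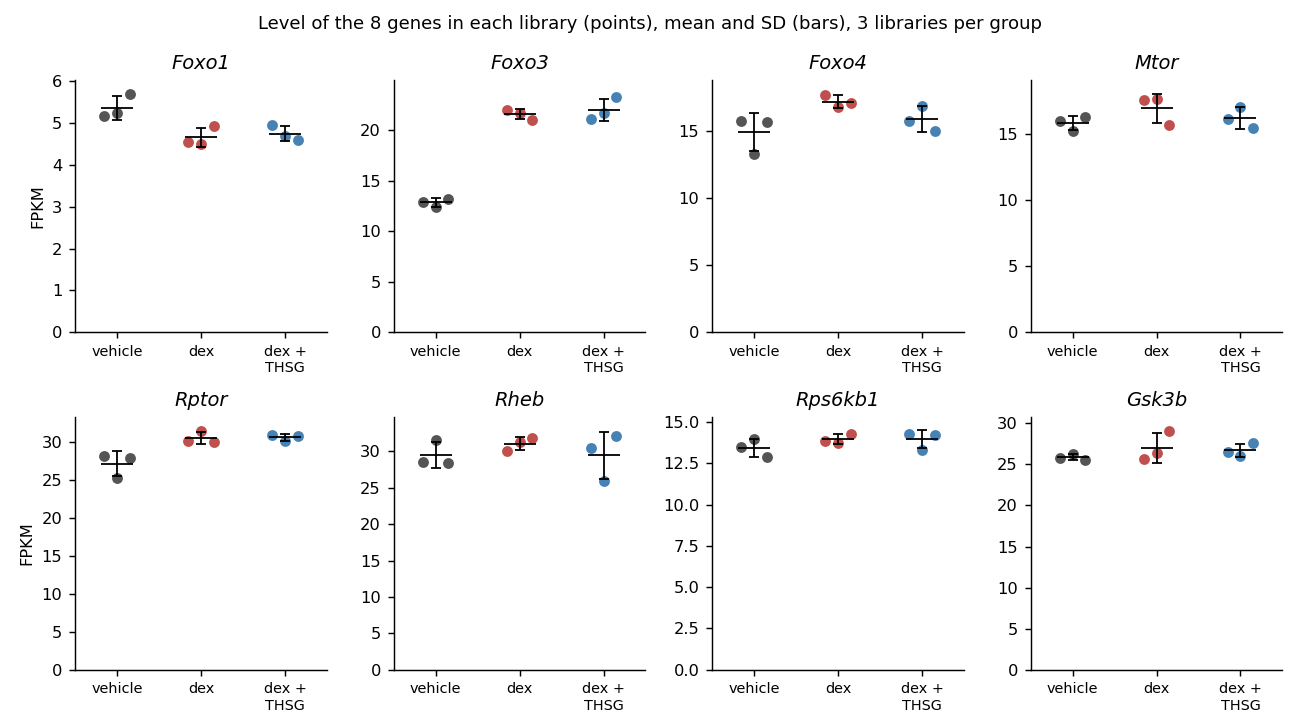
Each panel shows 1 gene, with the FPKM of every library as a point and the group mean with its SD as bars (3 libraries per group, y axes from 0 and scaled per gene). Foxo3 separates the vehicle group from both others, Foxo1 and Rptor do so by smaller margins, and Mtor, Rheb, Rps6kb1 and Gsk3b overlap between groups.

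Thus 2 of the 8 genes rose with dexamethasone and none fell by the limma test, where 12.7% of all 10716 genes rose and 20.9% fell. Read against that background, 2 of 8 is not a result about these genes as a set. The background split depends on the scaling. After median-ratio scaling 1739 of all genes rose and 1766 fell, and 3 of the 8 genes rose. The libraries did not overlap for 4 of the 8 (Foxo3, Foxo4 and Rptor higher, Foxo1 lower), against 45.9% of all genes. The median change of the 8 genes was 0.09 on the log2 scale, and that of all genes was -0.05.

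Levels of different genes can be set side by side only if the values are FPKM, which is scaled to length, and that unit was inferred. In vehicle the order of group means ran from Rheb (29.5 FPKM) through Rptor (27.1) and Gsk3b (25.9) to Mtor (15.8), Foxo4 (14.9), Rps6kb1 (13.5), Foxo3 (12.8) and Foxo1 (5.36). The ranges of Rptor and Gsk3b overlapped, as did those of each neighbouring pair from Mtor down to Foxo3. Rheb stood above Rptor, Gsk3b above Mtor, and Foxo3 above Foxo1 without overlap. With dexamethasone Foxo3 moved from rank 7 to rank 4, clear of Gsk3b above it and Foxo4 below it, and it kept rank 4 with THSG added, clear of Gsk3b and Mtor. The spread within groups was smallest for Gsk3b in vehicle (coefficient of variation 1.47%) and largest for Rheb with both agents (10.97%).

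THSG added to dexamethasone moved none of the 8 genes past the threshold. By limma 0 of 10716 genes (0%) were called in this comparison, with 777 (7.25%) at an unadjusted p under 0.05, and none of the 8 was among those 777. All 8 genes overlapped between the 2 groups, whereas 13.3% of all genes did not. The difference for Foxo3 was 0.03 (log2, 95% interval -0.10 to 0.15), and a return to the vehicle level would need a fall as large as the 0.74 rise. For Foxo1 it was 0.03 (-0.17 to 0.22), an interval that takes in the 0.20 by which the gene lay lower under dexamethasone. Foxo4 had the largest difference of the 8, -0.12 (-0.28 to 0.05), which reaches its 0.21 difference in the opposite direction. For the mTOR genes the differences were 0.01 for Rptor (-0.11 to 0.12), -0.06 for Mtor (-0.21 to 0.08), -0.08 for Rheb (-0.25 to 0.09) and -0.00 for Rps6kb1 (-0.14 to 0.13). The difference for Gsk3b was -0.02 (-0.14 to 0.11). The interval for Rptor does not reach a full reversal of its rise, while those of Foxo1 and Foxo4 do, so reversal of these last was neither shown nor bounded away at 3 libraries per group.

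Set against vehicle, the group given both agents had the same 2 genes called, and this comparison uses the same vehicle libraries as the one above. Foxo3 was higher by 0.77 (log2, SE 0.06, 95% interval 0.65 to 0.90, limma adjusted p = 1.03e-06). Rptor was higher by 0.18 (log2, SE 0.05, 95% interval 0.06 to 0.29, limma adjusted p = 0.0283), and it too lost the call without the second vehicle library (0.12, adjusted p = 0.110) and without any one of the 3 libraries of the combined group (0.17 to 0.19, adjusted p = 0.0515 to 0.0788). Foxo1 was lower by a difference of -0.17 that was not called (limma adjusted p = 0.178), with no overlap between libraries. Foxo4 differed by 0.09 (limma adjusted p = 0.412), Mtor by 0.03, Rheb by -0.01, and Rps6kb1 and Gsk3b by 0.05 each. Here too 2 of 8 genes rose and none fell, where 12.1% of all genes rose and 17% fell.

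**Figure D3:**
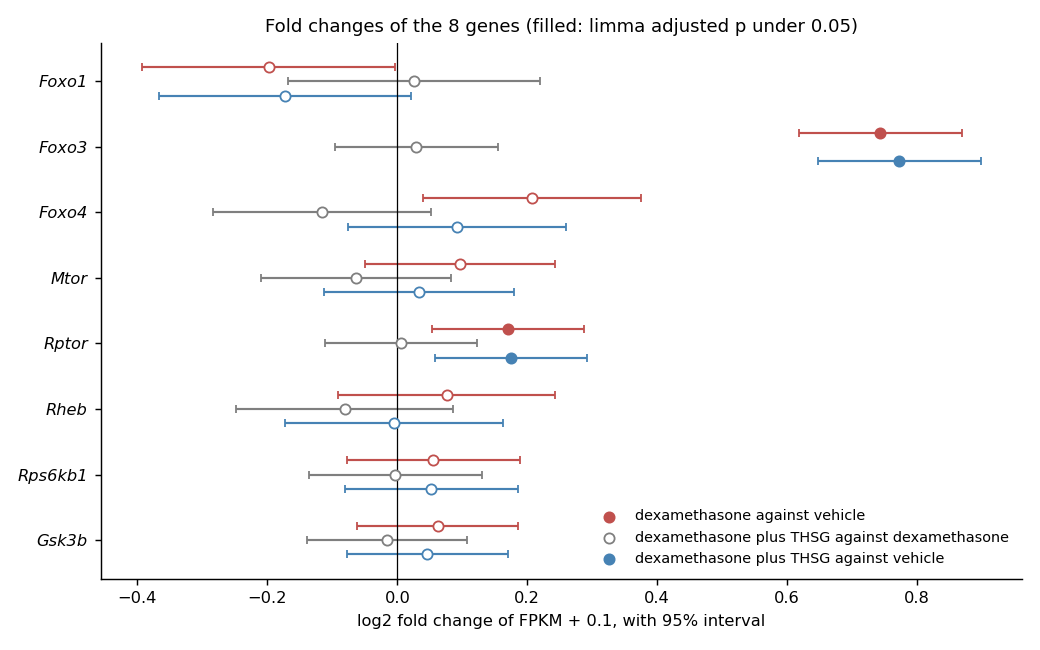
Points give the log2 fold change of FPKM + 0.1 of each of the 8 genes in the 3 comparisons, with 95% intervals from limma, and filled points have an adjusted p under 0.05. Foxo3 lies at 0.74 and 0.77 against vehicle, Rptor at 0.17 and 0.18, and every interval of dexamethasone plus THSG against dexamethasone spans 0.

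The subunits of the mTOR complexes divided. Of the 12 genes looked for, Mtor and Rptor included, 11 were in the table. Of these, 2 (Deptor and the member Rptor) rose and 5 fell with dexamethasone (all genes 12.7% and 20.9%). Deptor, an inhibitory subunit of both complexes, measured 41.2, 43.9 and 42.5 FPKM in vehicle, 95.4, 93.7 and 102.4 with dexamethasone and 93.7, 93.4 and 93.7 with both agents. It had the largest change of the 11, with vehicle libraries at less than 44 FPKM and all others above 93. The rise was 1.19 (log2, SE 0.05, limma adjusted p = 3.66e-09). Akt1s1, which encodes PRAS40, an inhibitor of mTOR complex 1 that AKT phosphorylates, measured 29.5, 27.9 and 26.2 FPKM in vehicle, 21.3, 23.3 and 22.2 with dexamethasone and 26.8, 27.5 and 26.8 with both. Its dexamethasone libraries were below all 6 others. The fall was -0.32 (log2, SE 0.06, limma adjusted p = 0.00115), and it was no longer called after the GC and length correction (-0.13, limma adjusted p = 0.0858). With THSG added, Akt1s1 lay higher by 0.28 (log2, SE 0.06), without overlap but not called over all genes (limma adjusted p = 0.230). In this comparison 13.3% of all genes did not overlap.

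Prr5, a subunit of complex 2, fell from 5.29 ± 0.554 to 3.70 ± 0.422 FPKM (SD, n = 3 each; -0.51 on the log2 scale, limma adjusted p = 0.0129), and with both agents stood at 2.93 ± 0.411. Its difference with THSG added was -0.33 (log2), further from vehicle, without overlap and not called. Telo2, part of the chaperone complex that assembles mTOR, fell from 4.72 ± 0.329 to 3.30 ± 0.683 FPKM (SD, n = 3 each; -0.52, limma adjusted p = 0.0217). Its partners Tti1 and Tti2 differed by -0.03 and 0.02 and were not called. Mapkap1, the complex 2 subunit SIN1, fell by 0.17 (limma adjusted p = 0.0313), and Mlst8, shared by both complexes, fell by 0.36 (limma adjusted p = 0.0435). Mlst8 was called in 5 of 20 alternatives. It was lost without any one vehicle library, the second or the third dexamethasone library, or the first or second combined library, and stood at -0.21 (limma adjusted p = 0.149) without the third dexamethasone library. Mapkap1 was called in 10 of 20 and was lost without the first or the third vehicle or the first or second dexamethasone library (limma adjusted p = 0.0713 to 0.115). Telo2 was called in 14 of the 19 alternatives that kept it and was lost without the first or the third vehicle or dexamethasone library (limma adjusted p = 0.0521 to 0.0785). Prr5 was called in 17 of 19 and was lost after the GC and length correction (-0.31, limma adjusted p = 0.0833). Rictor differed by 0.10 (limma adjusted p = 0.313). The 5 falls were less firm than the rise of Deptor. They numbered 3 after median-ratio scaling, 2 after quantile normalization and 1 after the GC and length correction. Leaving out either the first or the third vehicle library left 2, and leaving out any one dexamethasone library left 3. The 2 rises became 1, without Rptor, in the 3 omissions named for that gene. Against vehicle, the group given both agents had 2 genes higher (Deptor and Rptor) and 1 lower (Prr5). That is 27.3% called, close to the 29.1% of all genes, so the count is no result about this list.

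Upstream, between the insulin receptor and AKT, 21 of 23 genes were listed, of which 7 rose and 4 fell with dexamethasone (52.4% called, against 33.6% of all genes, of which 12.7% rose and 20.9% fell). Irs1, the adaptor that couples the receptor to PI3-kinase, fell from 21.9 ± 0.750 to 12.7 ± 0.588 FPKM (SD, n = 3 each; -0.78 on the log2 scale, limma adjusted p = 1.50e-06). Pik3r1, the regulatory subunit of PI3-kinase, rose from 14.3 ± 0.362 to 25.2 ± 1.76 FPKM (SD, n = 3 each; 0.81, limma adjusted p = 9.61e-07). Trib3, a pseudokinase that binds AKT, fell from a mean of 6.74 to 1.78 FPKM (-1.86, limma adjusted p = 4.42e-07). Chosen after their values were seen, the adaptor gene Irs2 rose by 0.81 and Akt2 by 0.31, while Akt1, at a mean of 116 FPKM in vehicle, differed by 0.01. Akt1 was called higher after the GC and length correction (0.18, limma adjusted p = 0.00597). With both agents 7 genes were higher and 4 lower than in vehicle. That is 52.4% called, against 29.1% of all genes, of which 12.1% rose and 17% fell.

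Of 17 genes around Rheb, the TSC complex and AMPK, 15 were listed, and 7 rose and 1 fell with dexamethasone (53.3% called, against 33.6% of all genes, of which 12.7% rose). Ddit4 (REDD1), which restrains mTOR complex 1 through TSC, rose from a mean of 16.2 to 28.5 FPKM (0.81 on the log2 scale, SE 0.08, limma adjusted p = 1.49e-05). The AMPK subunits Prkaa2 and Prkag3 rose by 0.74 (limma adjusted p = 0.000551) and 0.37 (limma adjusted p = 0.000711). Rhebl1 and Ddit4l, relatives of Rheb and Ddit4, were chosen after their values were seen. Rhebl1 went from a mean of 2.18 to 4.16 FPKM, called higher in all 19 alternatives that kept it. Ddit4l went opposite to Ddit4, from a mean of 2.04 to 1.24 FPKM. Tsc1 and Tsc2 were not analysed here. The single fall was lost in 5 omissions (the first and second vehicle, second and the third dexamethasone and first combined library) and became 2 without the first dexamethasone library. With both agents 5 genes were higher and 0 lower than in vehicle (33.3% called, against 29.1% of all genes). That 0 became 1 without the first dexamethasone library and without the first combined library, and 7 of the 15 genes had an unadjusted p under 0.05 (39.1% of all genes).

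Among the Rag GTPases and amino acid sensors, 27 of 29 genes were listed, with 5 higher and 4 lower under dexamethasone. That is 33.3% called, about the 33.6% of all genes, so the count is no result about this list. The sestrins, stress-induced sensors that hold back mTOR complex 1, went both ways. Sesn1 measured 18.1, 19.1 and 20.1 FPKM in vehicle, 47.1, 49.9 and 51.7 with dexamethasone and 53.0, 51.5 and 49.0 with both agents. It thus rose in every library given dexamethasone, by 1.37 (log2, SE 0.06, limma adjusted p = 7.58e-09), while Sesn3 fell by 1.06 (limma adjusted p = 2.72e-06). Sesn2, chosen after its values were seen, fell as well, from a mean of 4.39 to 2.98 FPKM. That fall was called in all 19 alternatives that kept the gene. Sec13, a subunit of the GATOR2 complex and of vesicle coats, fell by 0.47 (limma adjusted p = 5.32e-05). Without the second vehicle library 3 genes rose in place of 5. With both agents 3 genes were higher and 5 lower than in vehicle. That is 29.6% called, about the 29.1% of all genes, so this count too is no result about the list. Without the first or second vehicle library or the first combined library, 3 were lower.

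Of 19 listed effectors of mTOR complex 1, 3 rose and 3 fell with dexamethasone, a share of 31.6% that is close to the 33.6% of all genes. Eif4ebp2, a repressor of cap-dependent translation, rose by 0.45 (log2, limma adjusted p = 2.39e-05). Its paralogue Eif4ebp1, chosen after its values were seen, went the other way, from a mean of 12.3 to 9.41 FPKM. That fall was called in 18 of 20 alternatives and was lost without the first vehicle or the third dexamethasone library. Mitf, of the transcription factor family that mTOR complex 1 holds in the cytoplasm, rose by 0.95 (limma adjusted p = 0.000121), and Atg13, which starts autophagy with ULK1, by 0.37 (limma adjusted p = 0.000250). The rises numbered 6 with median-ratio scaling and with the GC and length correction, and the falls 1 without the first vehicle or second dexamethasone library and 0 without the third dexamethasone library. With both agents 4 genes were higher and 1 lower than in vehicle, a share of 26.3% close to the 29.1% of all genes. The single fall was lost without the first vehicle, first or second dexamethasone, or second or the third combined library. It became 2 without the third vehicle library.

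Around Gsk3b, 13 of 16 genes of GSK3 and beta-catenin signalling were listed, and 0 rose (2 after median-ratio scaling) and 2 fell with dexamethasone by limma (15.4% called, against 33.6% of all genes), with 4 at an unadjusted p under 0.05 (43.5% of all genes). Lef1, a nuclear partner of beta-catenin, fell from 4.49 ± 0.552 to 2.23 ± 0.521 FPKM (SD, n = 3 each; -0.99 on the log2 scale, limma adjusted p = 0.000410). Axin1, a scaffold of the complex that marks beta-catenin for breakdown, fell by 0.17 (limma adjusted p = 0.0414). That call was made in 6 of 20 alternatives, was lost after the GC and length correction (-0.06, limma adjusted p = 0.483) and was lost without the first or the third vehicle library, the first or the third dexamethasone library or any one combined library (limma adjusted p = 0.0502 to 0.126). In 6 of those 7 omissions, all but that of the third combined library, the list had 1 gene lower. Apc, of the same complex, missed the threshold (0.17, limma adjusted p = 0.0526) and passed without the third vehicle library (0.20, adjusted p = 0.0484) or the first dexamethasone library (0.21, adjusted p = 0.0342). With both agents 0 genes were higher and 1 lower than in vehicle (7.69% called, against 29.1% of all genes). That 0 became 1 without the third dexamethasone library, and 3 of the 13 genes had an unadjusted p under 0.05 (39.1% of all genes).

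Of 27 FOXO family genes and regulators, all listed, 6 rose and 2 fell with dexamethasone, a share of 29.6% beside 33.6% of all genes. Sgk1, a kinase that phosphorylates FOXO factors as AKT does, measured 15.01, 16.7 and 15.6 FPKM in vehicle, 101.1, 101.4 and 98.5 with dexamethasone and 102.0, 97.0 and 100.7 with both agents. The mean of each treated group was over 6 times that of vehicle. The rise was 2.66 (log2, SE 0.05, limma adjusted p = 5.66e-12), the largest in the list ahead of Foxo3. Ywhaq, a 14-3-3 protein of the kind that binds phosphorylated FOXO, fell by 0.34 (limma adjusted p = 0.000278). The falls numbered 1 without the second or the third vehicle or the second dexamethasone library. With both agents 6 genes were higher and 3 lower than in vehicle, a share of 33.3% beside 29.1% of all genes. Without the second or the third vehicle library 1 was lower.

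Of 35 FOXO target genes, 32 were listed, and 16 rose and 5 fell with dexamethasone (65.6% called, against 33.6% of all genes, of which 12.7% rose and 20.9% fell), with a median change of 0.18 against -0.05 over all genes. The list does not separate genes that FOXO factors switch on from genes they switch off, so these counts do not measure FOXO activity. Some of these genes are also known targets of the glucocorticoid receptor, and some stand in another list. Sesn3 and Eif4ebp1, lower with dexamethasone as given above, are among the targets. What part FOXO factors have in their change was not tested. Pdk4, which turns muscle from glucose to fat oxidation, measured 7.90, 7.09 and 7.22 FPKM in vehicle, 78.8, 77.7 and 82.6 with dexamethasone and 84.4, 79.2 and 79.9 with both agents. Fbxo32, the ubiquitin ligase atrogin-1, measured 16.6, 17.9 and 17.8 FPKM in vehicle, 75.2, 72.4 and 75.2 with dexamethasone and 74.8, 73.8 and 70.1 with both. In both genes the vehicle libraries were far below the other 6, and those with and without THSG overlapped. The rises were 3.41 for Pdk4 (log2, SE 0.05, limma adjusted p = 1.84e-12) and 2.08 for Fbxo32 (log2, SE 0.05, limma adjusted p = 4.80e-11). Chosen after their values were seen, Trim63 (MuRF1) rose by 0.69 and the autophagy gene Atg12 by 1.204, while the cyclin gene Ccnd1 fell by 1.18. With both agents 18 target genes were higher and 4 lower than in vehicle, and 11 and 2 without the third combined library. The former is 68.8% called, against 29.1% of all genes, of which 12.1% rose and 17% fell.

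Over the 8 lists together, 158 of 171 genes were in the table, 43 higher and 24 lower with dexamethasone (42.4% of the 158 called, against 33.6% of all genes). Some genes stand in more than 1 list and are counted once here. The lists were drawn up with earlier results of these data known, so this share is a description. Rises made up 64.2% of the calls in the lists and 37.8% over all genes. With median-ratio scaling these shares were 75% and 49.6%, and with the GC and length correction 76.8% and 51.9%. With THSG added to dexamethasone, 0 of the 158 genes were called by limma, and 12 had an unadjusted p under 0.05 (7.59%, against 7.25% of all genes).

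**Figure D4:**
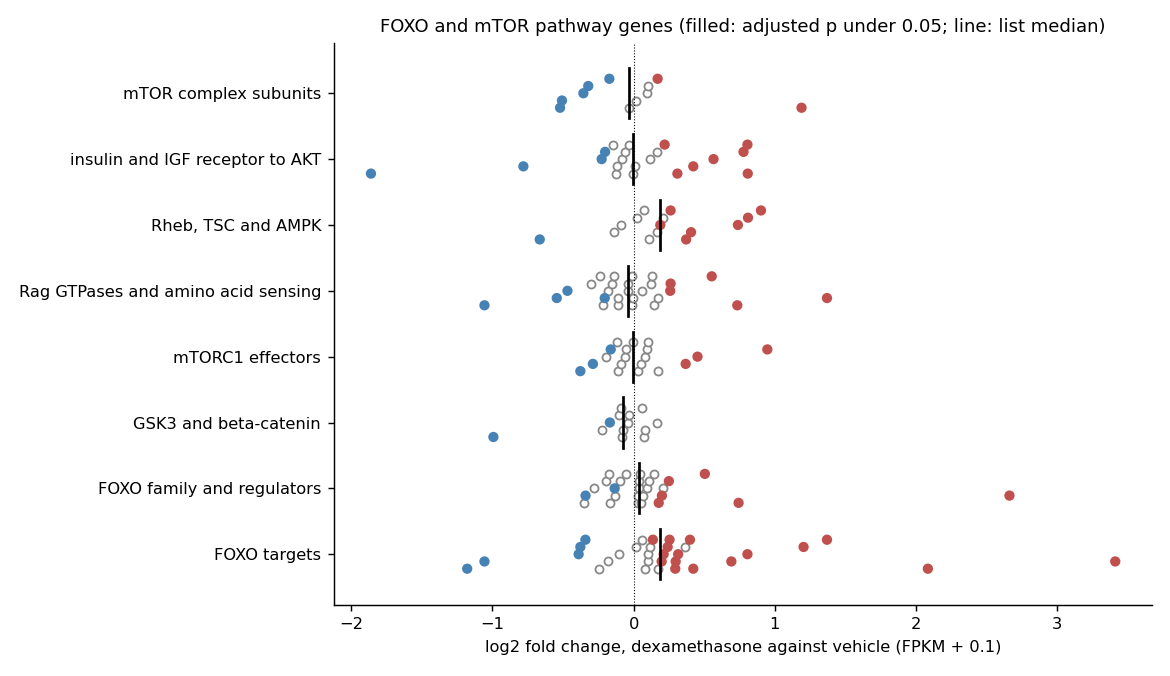
Each point is 1 gene of the 8 lists at its log2 fold change of FPKM + 0.1 with dexamethasone against vehicle. Filled points have a limma adjusted p under 0.05 (red higher, blue lower), and vertical lines mark list medians. The FOXO targets hold the most filled points (16 higher, 5 lower), and the mTOR complex list holds 1 far point, Deptor at 1.19.

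The genes whose log2 levels followed each FOXO gene most closely over the 9 libraries were taken by Pearson's r, as a description in which the 3 group means carry most of the variation. A change with dexamethasone in the direction of the FOXO gene is thus largely built into the choice. The calls given for these genes are no separate result. For Foxo3 these were Sik1 (r = 0.996), Dpep1 (0.996), Usp54 (0.996) and Vegfd (0.995). All 4 rose with dexamethasone, from Sik1, a kinase of the AMPK-related family, at 0.74 to the growth factor gene Vegfd at 3.05 on the log2 scale. For Foxo1 they were Lrrk2 (r = 0.983), Foxc2 (0.966), Phtf1 (0.966) and Enpp1 (0.966). Of these, Foxc2, a forkhead factor outside the FOXO family, fell by 0.51, Phtf1 by 0.48 and Enpp1 by 0.28 with dexamethasone, and Lrrk2 missed the threshold (-0.25, limma adjusted p = 0.0504). The call of Foxc2 was lost without the second or the third vehicle or the first or second dexamethasone library (limma adjusted p = 0.0512 to 0.0792), and that of Enpp1 without the first or second dexamethasone library (0.0512 and 0.0556). Between the members, Foxo3 and Foxo1 ran opposite (r = -0.856), and Rptor ran with Foxo3 (r = 0.892, 9 libraries).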

How the data were processed

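RNA of 9 libraries was measured by stranded mRNA sequencing, per the labels' protocols (Hybrid-R extraction, TruSeq libraries). Alignment and counting tools named in the submitters' processing notes are STAR 2.7.10a and featureCounts, with build GRCm39 (mm39). The authors deposited 1 table of fractional values, taken here to be FPKM from their range and form; no header states the unit, the strand setting, the transcript lengths or the filter. All 10716 genes exceed 1 FPKM in every library. No whole reads could be recovered (the commonest ratio between libraries recurred 4 times among the 500 lowest genes), so depth is unknown and precision is known only from the spread between libraries. Groups followed the sample titles, since the cell line field counts upward.

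Log2(FPKM + 0.1) was fitted with limma 3.58.1 (R 4.3.3), with an intensity trend and 1 mean per group over all 9 libraries, and p-values (two-sided) were adjusted by Benjamini-Hochberg over 10716 genes. The script was tested on simulated data. The 8 genes and all lists were chosen with earlier results of these data known. By rule the text names the 8 genes, listed mTOR complex subunits, Foxo6, the 3 genes of smallest p with dexamethasone in each other list, and the 4 genes most correlated with Foxo1 and Foxo3. Outside that rule, Irs2, Akt1, Akt2, Sesn2, Eif4ebp1, Trim63, Atg12, Ccnd1, Gsk3a, Cks2, Rps2-ps10 and the named cell type markers were chosen after their values were seen. So were Rhebl1, Ddit4l, Tfe3 and Tfeb. The 20 alternatives were pseudocounts of 0 and 1, a replicate block, a GC and length correction (splines with 4 degrees of freedom, 10670 of 10716 identifiers matched), both of these together, scaling by median ratios, to equal sums or by quantiles, a fit on each pair of groups alone, no intensity trend, a minimum mean of 5 FPKM, and 9 omissions of 1 library. DESeq2 was not run, since it needs counts. Promoters came from RefSeq.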

Additional observations from a re-analysis of the deposited data

How the results depend on the processing

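Of the 8 genes, Foxo3 was called against vehicle under each of the 20 alternatives, in both treated groups. With dexamethasone against vehicle, Foxo1 was called without an intensity trend (-0.20, limma adjusted p = 0.0388). Foxo4 was called after median-ratio scaling (0.26), quantile normalization (0.25) and the GC and length correction, alone or with the replicate block (0.31 in both). Rptor was not called without an intensity trend (0.17, and 0.18 for both agents against vehicle) or with 2 groups alone in the fit (0.17). Rps6kb1 changed sign with the GC and length correction, with or without the block (-0.0041). With the block and that correction together, 15 genes of the pathway lists fell in place of 24. The causes were not tested.

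For THSG added to dexamethasone, values near 0 changed sign. Rptor became -0.0084 with median-ratio scaling, -0.0109 with equal sums, -0.0146 with quantile normalization and -0.0372 with the GC and length correction, where Rps6kb1 became 0.0572 and Gsk3b 0.0057, each the same with the block. For both agents against vehicle, Rheb became 0.0291, 0.0137 and 0.043 after median-ratio scaling, quantile normalization and the GC and length correction. Among other genes, Tti1 with dexamethasone changed sign under the same 3 settings (0.0166, 0.0382 and 0.0221), and the GC and length correction turned Foxo6 (0.0603) and Gsk3a (0.086) with dexamethasone and Akt1s1 with both agents against vehicle (0.0385).

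Leaving out 1 library at a time, the change with dexamethasone was 0.1268 to 0.2505 for Foxo4, 0.1194 to 0.1984 for Rptor, -0.0645 to 0.009 for Tti1, -0.0314 to 0.0664 for Tti2 and -0.0173 to 0.0658 for Akt1. With THSG added it was -0.004 to 0.0644 for Foxo1, -0.0104 to 0.0586 for Foxo3, -0.0058 to 0.0258 for Rptor, -0.145 to 0.0099 for Rheb, -0.021 to 0.0294 for Rps6kb1 and -0.0541 to 0.0377 for Gsk3b. For both agents against vehicle it was -0.0044 to 0.0682 for Mtor, 0.1246 to 0.2036 for Rptor, -0.0689 to 0.086 for Rheb and -0.0863 to 0.0001 for Akt1s1. Over all genes, 0 to 1 rose with THSG added, the 1 being Cks2 without the third dexamethasone library.

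The deviations of same-numbered libraries correlated at -0.09 to 0.11, so no large effect shared by replicate number was seen. With 3 libraries per group this cannot tell whether they were prepared as matched sets. With the replicate block, 1 gene rose with THSG added (Rps2-ps10, 0.47, limma adjusted p = 0.0215), and 1 did with the block and the GC and length correction. Mapkap1 and Mlst8 were no longer called as lower with dexamethasone under the block (-0.17 and -0.36).

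Depth is unknown. Each listed gene exceeds 1 FPKM in all 9 libraries, so genes near 0 in any group were not analysed here. With 3 libraries per group, the 95% intervals of the 8 genes reached 0.12 to 0.19 to either side of the estimate on the log2 scale. RNA levels do not show phosphorylation or protein amounts of FOXO or mTOR.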
